A study of Mus musculus with 6 samples.

Results

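ER chaperones and oxidative folding enzymes are the proteins that bind newly made chains inside the endoplasmic reticulum (ER), add disulfide bonds to them and hold them back until they are folded. The genes were taken by name, 38 in all: the HSP70 chaperone Hspa5 with its cofactors, the HSP90 chaperone Hsp90b1, the calnexin cycle, disulfide isomerases, prolyl isomerases, secreted or stress-induced cofactors and the collagen chaperone Serpinh1. Of these, 35 were measured by a probe set with a single gene symbol, among 30702 named genes on the array. Pdia4 and Manf shared a probe set with another gene, and Fkbp10 was not analysed here. For Uggt2 and Serpinh1, which had 2 probe sets each, the brighter was used, as it was for every gene.

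Subcutaneous fat from the inguinal depot was taken from C57BL/6 males at 2 months of age, with 3 microarrays per group, each labelled a biological replicate. Mice of the KO group carried floxed TFG alleles (f/f) and Adipoq-ERT2Cre, a tamoxifen-dependent Cre driven by the adiponectin promoter. WT mice carried the same floxed alleles without Cre, and both groups received tamoxifen by intraperitoneal injection for 5 days, 2 weeks before the fat was taken. Since Cre acts in adipocytes, the other cells of the fat pad keep Tfg, and in whole fat a different number of cells of a type and a different amount of RNA per cell cannot be told apart. Values are log2 signals as the authors deposited them, and differences are KO-labelled minus WT-labelled arrays, with the standard error (SE) from limma.

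TFG organises ER exit sites, where folded cargo leaves the ER in COPII-coated vesicles. A fat cell secretes adiponectin and lipoprotein lipase, both of which need disulfide bonds formed and glycans added in the ER. When unfolded protein builds up, the sensors IRE1, PERK and ATF6 of the unfolded protein response (UPR) raise the transcription of many chaperone genes. HSPA5 (also called BiP) binds exposed hydrophobic stretches, calnexin and calreticulin hold chains through a trimmed sugar, and disulfide isomerases make and reshuffle disulfide bonds.

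The array values carry several limits. Tfg itself read 7.97, 7.94 and 7.91 on WT 1 to 3 and 7.99, 8.21 and 8.03 on KO 1 to 3, so it was not lower on the KO-labelled arrays as deposited (difference 0.14 ± 0.11 SE, adjusted p = 0.345). With each array centred on the housekeeping mean it was lower, at -0.92 (adjusted p = 0.0112). On the deposited values its 2-sided p by exact permutation was 0.1, which is also the smallest value possible with 3 arrays a group, and which exons the probe set reads is not known here. Array medians lay between 6.96 and 7.02 in the WT group and between 6.47 and 6.76 in the KO group. The mean of 12 measured housekeeping genes moved the other way, from between 9.03 and 9.18 to between 9.88 and 10.55. These genes did not move alike, with differences from 0.11 (Gusb) to 2.66 (Sdha). KO 2 correlated with the other KO-labelled arrays at 0.96 and 0.965 across probe sets, against 0.984 to 0.986 among WT-labelled arrays. Detection calls were not used here. Genes of olfactory and vomeronasal receptors, which serve smell, spanned 5.93 to 10.37 on WT-labelled arrays (5th to 95th percentile of 1389 genes), and the WT-labelled means of the folding genes, 5.90 to 9.68, covered much of the same span. The WT-labelled levels of these genes therefore cannot be set apart from those of receptor genes. Between the groups the receptor genes had a median difference of -0.82 as deposited, and the 12 housekeeping genes one of 1.11.

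Hsp90b1 (5.62-fold), Canx (5.11-fold), P4hb (4.71-fold) and Pdia3 (4.0-fold) showed the largest rises of the family on the KO-labelled arrays. Of 35 measured genes 14 rose and 0 fell (limma, adjusted p under 0.05 over all probe sets). At an unadjusted p under 0.05, 24 were higher and 1 lower, where 31589 of all 65956 probe sets stood under that value in either direction. Among protein-coding named genes 10.7% were called higher and 10.2% lower, among all named genes 8.91% and 13%, and among all probe sets 5.32% and 15.6%. The median difference of the 35 genes was 0.55, against -0.18 for the protein-coding genes and -0.37 for all probe sets. All 3 KO-labelled values lay above all 3 WT-labelled values for 27 genes and below them for 3, where 23.3% and 41% of protein-coding genes, and 18.5% and 43.4% of all named genes, did so. The mean over the 35 genes was 7.33, 7.38 and 7.29 on the WT-labelled and 7.99, 8.39 and 7.98 on the KO-labelled arrays.

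**Figure D1:**
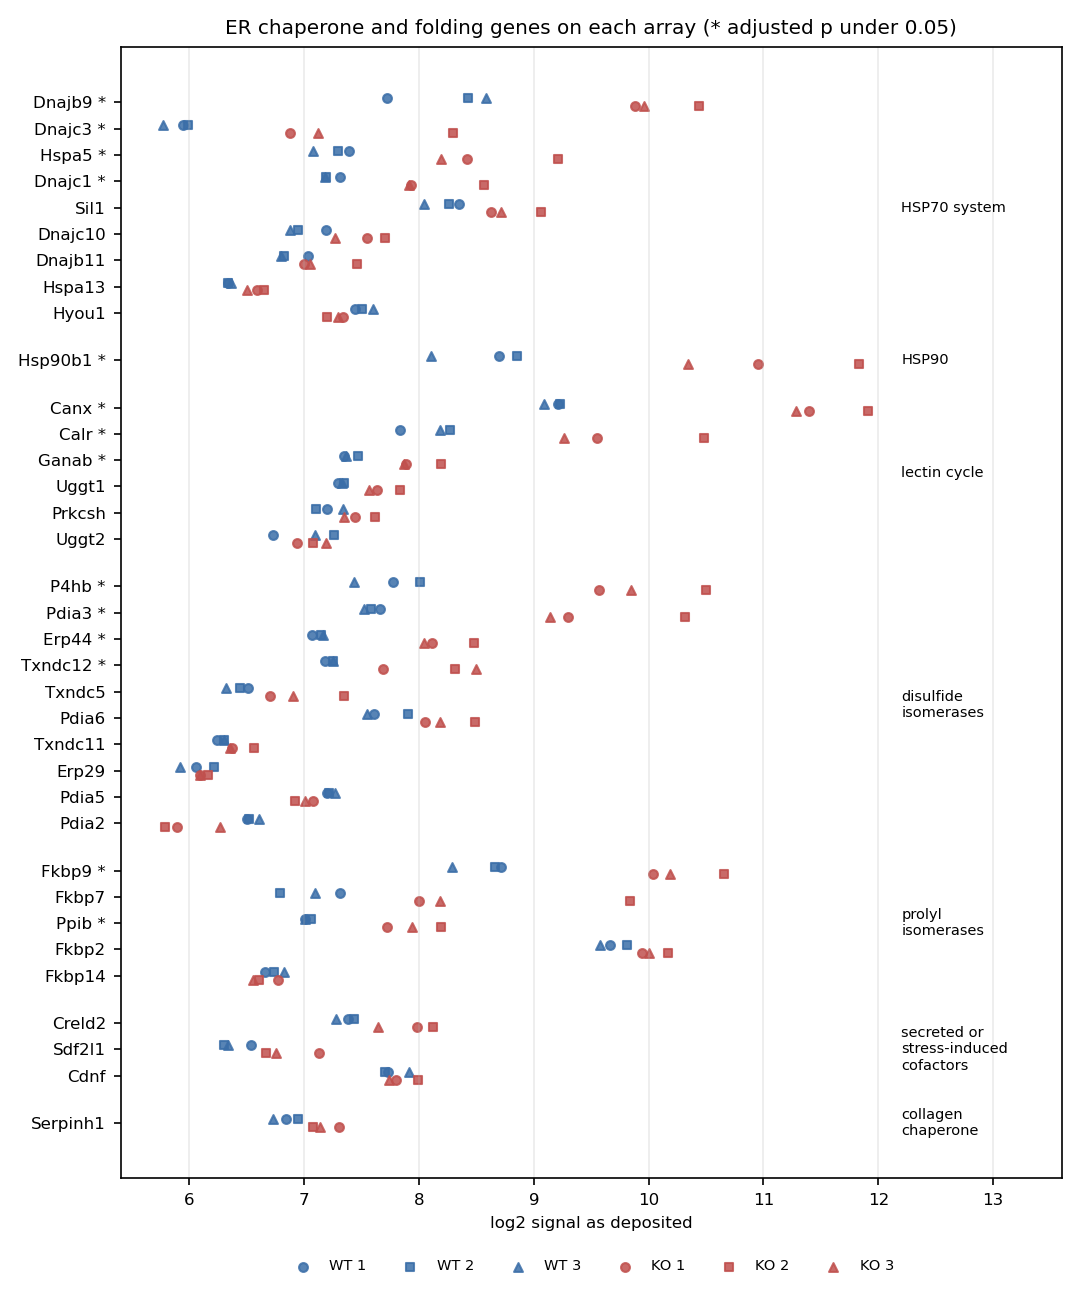
Log2 signal of 35 ER chaperone and folding genes (rows, grouped by role) on each of 3 WT-labelled (blue) and 3 KO-labelled arrays (red), with marker shapes for replicates and a star for an adjusted p under 0.05. The 14 starred genes have all red points to the right of all blue points, and KO 2 is the rightmost red point for 27 of the 35 genes.

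The calls were close to the threshold, with adjusted p between 0.0346 and 0.0423. They depended on which arrays were in the fit. With WT 1, WT 2, WT 3 or KO 3 left out, limma called 0 of the 35 genes and 0 of all 65956 probe sets. At an unadjusted p under 0.05, 20, 19, 17 and 22 of the 35 genes were higher. Of all probe sets 23757, 25102, 21579 and 28697 stood under that value, in either direction. Without KO 1 the same 14 genes passed. Without KO 2, the array that stood apart, 13 of the 14 passed, Txndc12 was lost (adjusted p = 0.0775) and Fkbp7 was gained (adjusted p = 0.0332). The scaling also bears on the direction. With each array centred on its median 22 genes were called higher and 0 lower, and the median difference was 0.88. With each array centred on the housekeeping mean, which itself separates the groups, 6 were called higher and 14 lower, and the median turned to -0.51. Of all 65956 probe sets 901 were called higher there and 59060 lower, with a median of -1.43. The median of all probe sets was -0.37 as deposited and -0.04 with array medians, below that of the 35 genes in each case. Relative to the housekeeping mean 11 of the 35 genes stood above 0, 10 of them among the 14 that rose. The share of higher calls among all probe sets called moved from 25.4% as deposited to 61.2% with array medians and 1.5% with the housekeeping mean.

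**Figure D2:**
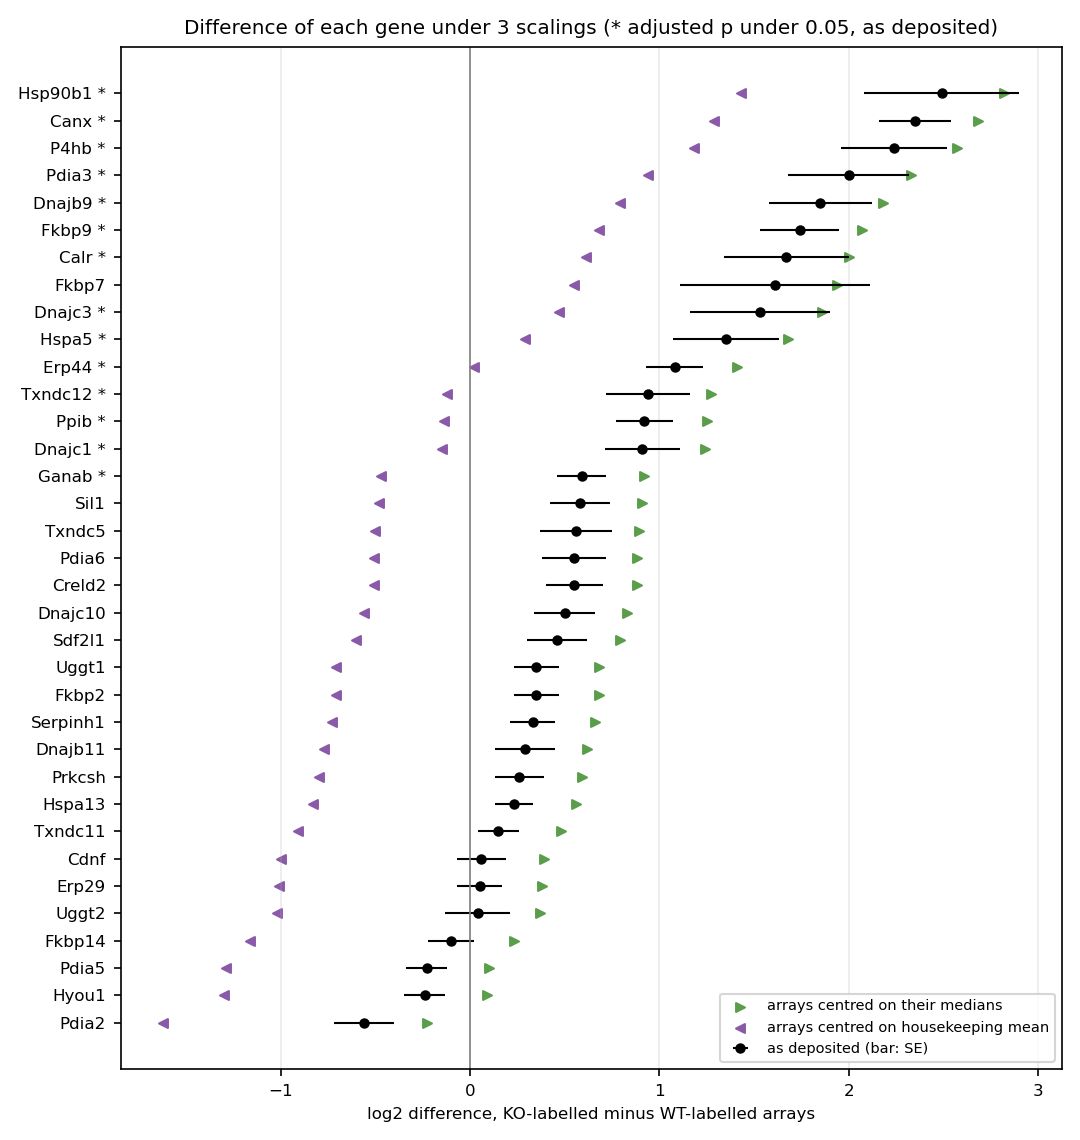
Log2 difference between KO-labelled and WT-labelled arrays for each of the 35 genes (rows), as deposited (black, bar 1 SE either way), after centring each array on its median (green) and after centring on the housekeeping mean (purple). Hsp90b1, Canx and P4hb lie above 0 under every scaling, whereas Ganab lies at 0.59, 0.92 and -0.47 and Hyou1 at -0.24, 0.09 and -1.30.

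The promoters of several of these genes carry the ER stress response element (ERSE), to which ATF6 and the CCAAT-binding factor NF-Y are known to bind. Its letters, CCAAT and CCACG with 9 free bases between them, were searched on both strands of the RefSeq windows (GRCm38.p6) from 250 bases before to 50 bases after each gene's start. Windows were available for 31 of the 35 measured genes. Hyou1, Sil1, Hspa13 and Erp29, none of which rose, had no window and were not searched. Of the 31 genes 7 (22.6%) held an exact match, against 0.137% of all 27025 genes with windows. The element was first described in promoters of this very family, so its presence here is no independent finding. The matches are shown so that the sites of different genes can be compared. They are written 5′ to 3′ on the strand that reads CCAAT first, with the fixed letters in capitals:
Hspa5: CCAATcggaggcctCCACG
Hsp90b1 (distal): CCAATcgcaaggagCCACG
Hsp90b1 (proximal): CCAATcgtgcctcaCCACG
Canx: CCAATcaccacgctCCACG
Calr: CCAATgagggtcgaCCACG
Dnajc3: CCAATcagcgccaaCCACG
Creld2: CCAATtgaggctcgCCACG
Pdia6: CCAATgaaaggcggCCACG

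The fixed ends of the site are shared and the 9 bases between them differ from gene to gene. The site began 65 bases before the start in Hspa5, 212 and 107 in Hsp90b1, 145 in Canx, 162 in Calr, 105 in Dnajc3, 126 in Creld2 and 98 in Pdia6. In Calr, Creld2 and the proximal site of Hsp90b1 it lay on the strand opposite to the gene. The whole windows of 3 genes that rose are given to show where the elements, in capitals, sit:
Hspa5 promoter, chr2:34771840-34772139, plus strand: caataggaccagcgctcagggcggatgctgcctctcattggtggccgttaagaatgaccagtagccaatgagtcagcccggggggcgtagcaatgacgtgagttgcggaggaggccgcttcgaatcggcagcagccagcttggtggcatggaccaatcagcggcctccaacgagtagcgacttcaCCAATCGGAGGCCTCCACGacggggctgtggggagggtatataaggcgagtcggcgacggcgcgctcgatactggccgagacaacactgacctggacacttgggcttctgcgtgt
Hsp90b1 promoter, chr10:86705395-86705694, minus strand: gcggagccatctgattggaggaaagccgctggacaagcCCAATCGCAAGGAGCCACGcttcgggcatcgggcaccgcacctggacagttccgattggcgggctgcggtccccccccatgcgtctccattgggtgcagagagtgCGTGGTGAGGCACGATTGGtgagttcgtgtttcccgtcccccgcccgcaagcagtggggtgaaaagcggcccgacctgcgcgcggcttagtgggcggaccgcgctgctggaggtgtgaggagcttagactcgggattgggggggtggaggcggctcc
Canx promoter, chr11:50325624-50325923, minus strand: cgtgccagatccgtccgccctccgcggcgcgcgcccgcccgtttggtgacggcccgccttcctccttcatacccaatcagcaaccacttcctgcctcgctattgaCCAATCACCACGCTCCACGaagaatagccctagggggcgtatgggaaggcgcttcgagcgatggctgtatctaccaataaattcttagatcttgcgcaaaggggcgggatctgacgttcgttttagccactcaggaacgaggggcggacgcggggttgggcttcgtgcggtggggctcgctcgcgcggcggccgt

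Of the 7 genes with an exact match 5 rose, with a median difference of 1.53, and of these Canx and Hsp90b1 alone still passed relative to the housekeeping mean. Of the 24 without it 9 rose, with a median of 0.48. These medians describe the arrays and were not tested against each other. P4hb, Fkbp9 and Dnajb9 rose without an exact match in the window. Outside the family, 24 measured genes held the element, of which 1 rose (Acacb, at 3.23) and 6 fell, with a median of -0.32. A search that allowed 1 of the 10 fixed letters to change was made after the exact matches were seen. It found 11 of the 31 genes (35.5%), against 1.72% of all genes, and 7 of the 11 rose. Of the 20 genes without such a match 7 rose as well. The medians were 1.35 with and 0.48 without it, again not tested against each other. The wider search added Pdia3, with the substitution G19A (element letter, position from its 5′ end, promoter letter), and Erp44, with A17C, both of which rose, and Fkbp2 and Pdia2, both with T5G, which did not pass. Their sites show the changed base in lower case:
Pdia3: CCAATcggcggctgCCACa
Erp44: CCAATcccgaagagCCcCG

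Other UPR motifs were found in fewer of the 31 genes. ERSE-II, ATTGG and CCACG with 1 free base between them, stood in 1 gene, Dnajb11, 7 bases past its start, against 0.0444% of all genes. The UPRE core TGACGTGG stood in Txndc5 and Txndc11 (6.45% of the 31 genes, against 0.714% of all), and the amino acid response element TGATGNAAN in Cdnf and Txndc5 (6.45%, against 4.5%). None of these 4 genes passed the test. Erp44, Fkbp2, Fkbp14, Txndc5 and Txndc11 have more than 1 start site and window in the table. The ERSE-II match shares its CCACG with the plain letters of ERSE.

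**Figure D3:**
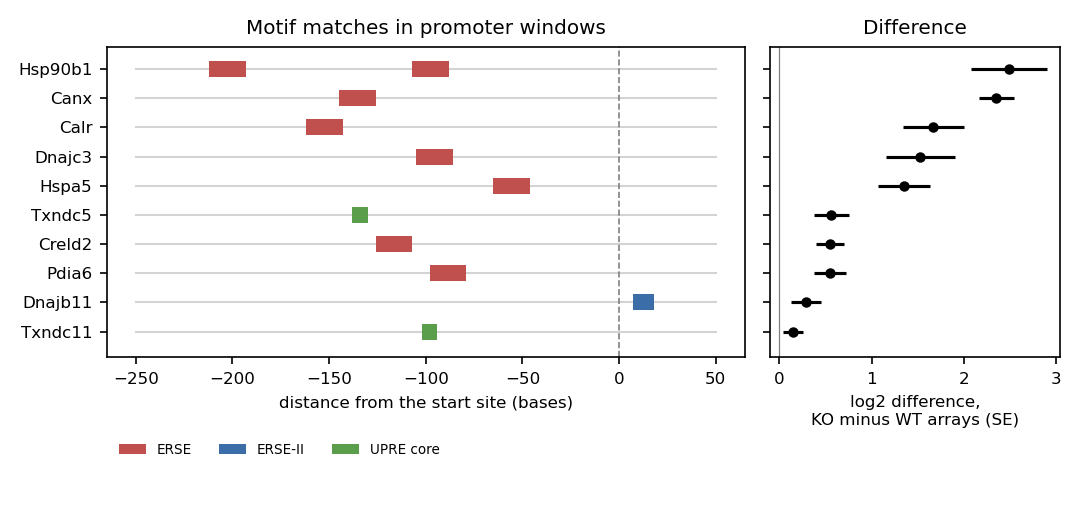
Left, positions of exact ERSE (red), ERSE-II (blue) and UPRE core (green) matches in bases from the start site, for the 10 measured genes with any match; right, the log2 difference between KO-labelled and WT-labelled arrays with 1 SE. ERSE matches lie between 212 and 47 bases before the start, and the 5 genes at the top, all with ERSE, are those that rose.

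In the HSP70 system of the ER, 4 of 9 genes rose. Hspa5 read 7.39, 7.29 and 7.08 on the WT-labelled and 8.42, 9.21 and 8.19 on the KO-labelled arrays, a rise of 1.35 ± 0.28, or 2.56-fold (adjusted p = 0.037). Relative to the housekeeping mean it was 0.29 and did not pass (adjusted p = 0.368). The groups did not overlap, and KO 2 was the highest array. Dnajb9 and Dnajc3 encode J-domain proteins (ERdj4 and p58IPK) that deliver substrates to BiP and are themselves UPR targets. Dnajb9 read 7.72, 8.43 and 8.58 on WT-labelled and 9.88, 10.44 and 9.96 on KO-labelled arrays, a rise of 1.85 ± 0.27. Dnajc3, which carries an exact ERSE, went from 5.94, 5.99 and 5.77 to 6.88, 8.3 and 7.12, a rise of 1.53 ± 0.37 in which KO 2 stood well above KO 1 and KO 3. Relative to the housekeeping mean Dnajc3 was 0.47 and did not pass (adjusted p = 0.172). Its WT-labelled mean of 5.90 lay below the 5th percentile of the receptor genes (5.93). Dnajc1, a J protein anchored in the ER membrane and at the ribosome, went from 7.31, 7.19 and 7.18 to 7.93, 8.57 and 7.91 (difference 0.91 ± 0.20, adjusted p = 0.0392; -0.15 relative to the housekeeping mean). Its call was lost with the replicate number as a block.

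The remaining parts of the HSP70 system did not pass. Sil1 and Hyou1 encode the nucleotide exchange factors that release ADP from BiP, and they stood apart from each other. Sil1 was 0.58 ± 0.16 higher (adjusted p = 0.0509) without overlap. Hyou1, also known as ORP150 and a UPR target like Hspa5, read 7.44, 7.5 and 7.6 on WT-labelled and 7.34, 7.2 and 7.29 on KO-labelled arrays. Its difference of -0.24 ± 0.11 did not pass (adjusted p = 0.132), although the groups did not overlap, and it turned to 0.09 after centring on array medians. The reductase Dnajc10, which opens disulfides before degradation, was 0.50 higher (adjusted p = 0.0638), the J protein Dnajb11 0.29 higher with overlap, and Hspa13, an HSP70 relative without a substrate domain, 0.23 higher.

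Hsp90b1, which encodes GRP94, the HSP90 of the ER that folds integrins and Toll-like receptors, showed the largest difference of the 35 genes. It read 8.7, 8.85 and 8.1 on the WT-labelled arrays and 10.95, 11.83 and 10.34 on the KO-labelled arrays. The rise was 2.49 ± 0.41 (adjusted p = 0.0354), and the lowest KO-labelled value stood well above the highest WT-labelled value. It remained 1.43 relative to the housekeeping mean and was 2.10 without KO 2.

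In the calnexin cycle, the lectin chaperones rose most. Canx, the membrane-bound lectin, went from 9.21, 9.23 and 9.09 to 11.4, 11.91 and 11.28, a rise of 2.35 ± 0.19 with the smallest adjusted p of the family (0.0346). The WT-labelled values had an SD of 0.08 and lay far below the KO-labelled ones. Calr, its soluble counterpart, read 7.83, 8.27 and 8.18, then 9.55, 10.48 and 9.26, a rise of 1.67 ± 0.33 that was 0.61 relative to the housekeeping mean and no longer passed (adjusted p = 0.0839). Ganab, the catalytic subunit of glucosidase II, which trims the sugar that both lectins read, went from 7.35, 7.47 and 7.36 to 7.89, 8.19 and 7.87, a rise of 0.59 ± 0.13 that turned to -0.47 relative to the housekeeping mean. Its regulatory partner Prkcsh was 0.26 higher without passing (adjusted p = 0.157). Uggt1, the folding sensor that puts the sugar back, was 0.35 ± 0.12 higher (adjusted p = 0.0703). Its paralog Uggt2 read 6.73, 7.26 and 7.09 against 6.94, 7.08 and 7.19, with overlap, and the dimmer of its 2 probe sets gave -0.25 where the brighter gave 0.04.

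Among the disulfide isomerases 4 of 10 measured genes rose, and the differences ran from -0.56 to 2.24. P4hb encodes PDI itself, also the beta subunit of collagen prolyl 4-hydroxylase and of the microsomal triglyceride transfer protein. It read 7.77, 8.01 and 7.43 on WT-labelled and 9.57, 10.5 and 9.85 on KO-labelled arrays, a rise of 2.24 ± 0.28. Pdia3 (ERp57), the isomerase that works with calnexin and calreticulin, read 7.66, 7.58 and 7.52, then 9.3, 10.32 and 9.14, a rise of 2.0 ± 0.32. Both stood above the housekeeping mean's own shift, at 1.18 and 0.94.

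Erp44 retains adiponectin in the ER through a mixed disulfide, from which ERO1 is known to release it. It went from 7.07, 7.15 and 7.16 to 8.11, 8.48 and 8.04, a rise of 1.08 ± 0.15 (adjusted p = 0.0354), which was 0.02 relative to the housekeeping mean. Txndc12 (ERp18), a small thioredoxin-like oxidase, read 7.18, 7.25 and 7.25 against 7.69, 8.31 and 8.5. Its rise of 0.94 ± 0.22, -0.12 relative to the housekeeping mean, was the call lost without KO 2. KO 3 was its highest array, unlike the other 13 genes called, for which KO 2 was the highest.

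The other isomerases did not pass. Pdia6, with an exact ERSE, was 0.55 ± 0.17 higher (adjusted p = 0.058), and Txndc5, abundant in endothelium and fibroblasts, 0.56 ± 0.19 higher (adjusted p = 0.0705). Txndc11, a partner of the thyroid oxidases, was 0.15 higher, and Erp29, which lacks a redox-active site, was 0.05 higher with overlap. The lowest difference of the family was that of Pdia2, the pancreatic isomerase, which read 6.5, 6.52 and 6.61 on WT-labelled and 5.89, 5.79 and 6.27 on KO-labelled arrays. That difference, -0.56 ± 0.16, missed the threshold (adjusted p = 0.0506) and passed with eBayes set to both trend and robust (adjusted p = 0.045). It shrank to -0.23 after centring on array medians (limma, adjusted p = 0.317) and to -0.19 after quantile normalization (adjusted p = 0.343). The median of all probe sets was -0.37 as deposited. Pdia5 (PDIR) read 7.2, 7.22 and 7.27 against 7.08, 6.92 and 7.01 (-0.23 ± 0.11, adjusted p = 0.134), and was 0.10 after centring on array medians.

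Of 5 measured prolyl isomerases, which speed the turning of proline bonds, 2 rose. Fkbp9, a member of the FK506-binding family, went from 8.71, 8.66 and 8.29 to 10.04, 10.66 and 10.19, a rise of 1.74 ± 0.21. Ppib (cyclophilin B), which acts on collagen and other secreted chains, went from 7.01, 7.06 and 7.01 to 7.72, 8.19 and 7.94, a rise of 0.92 ± 0.15 and -0.14 relative to the housekeeping mean. Fkbp7, which binds BiP, was 1.61 ± 0.50 higher but varied most within a group of all 35 genes, with KO-labelled values of 8.0, 9.84 and 8.18 (SD 1.01), and did not pass (adjusted p = 0.0603). Fkbp2 was 0.35 higher (adjusted p = 0.0768) and Fkbp14 stood at -0.10 with overlap, or 0.23 after centring on array medians.

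The small ER-stress cofactors and the collagen chaperone did not pass. Creld2, a secreted UPR target with an exact ERSE, was 0.55 ± 0.15 higher (adjusted p = 0.0516), and Sdf2l1, a cofactor of BiP, 0.46 ± 0.16 higher (adjusted p = 0.0779), both without overlap. Cdnf, the paralog of Manf, stood at 0.06 with overlap. Serpinh1 (HSP47), which binds the collagen triple helix, read 6.84, 6.95 and 6.73 on WT-labelled and 7.3, 7.08 and 7.14 on KO-labelled arrays (0.33 ± 0.12, adjusted p = 0.0828). Its dimmer probe set gave -0.16, so the 2 probe sets differ in direction.

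The replicates spread more on the KO-labelled arrays: the SD was larger there than on the WT-labelled arrays for 29 of the 35 genes, with medians of 0.24 and 0.11. KO 2 was the highest KO-labelled array for 27 genes, KO 1 for 5 and KO 3 for 3. Without KO 2 the median difference was 0.45.

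Other ER genes were set beside the family from lists of related function. Among 18 further oxidative folding enzymes 6 rose and 1 fell, with a median of 0.53. Gpx8, a peroxidase of the ER that consumes hydrogen peroxide, rose by 2.50 ± 0.36 (adjusted p = 0.0354), Qsox1, a sulfhydryl oxidase, by 0.65 ± 0.12 and Vkorc1l1, a vitamin K epoxide reductase that can pass electrons to isomerases, by 0.69 ± 0.13. The last 2 were -0.41 and -0.37 relative to the housekeeping mean. Erp27, an isomerase relative named because it was the call in the other direction, fell by 0.58. The oxidase Ero1a, the partner of PDI and ERp44 in adiponectin release, stood at 0.29 ± 0.15 (adjusted p = 0.175), and Gstk1 (DsbA-L), which promotes adiponectin assembly, at 1.56 ± 0.43, which narrowly missed the threshold (adjusted p = 0.0503).

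Of 13 further glycan and quality-control enzymes 6 rose, with a median of 0.67, among them the degradation lectin Os9 (0.67 ± 0.14), the cargo receptor Lman1 (0.83 ± 0.18) and the mannosidase Edem3 (1.01 ± 0.23). These 3 stood at -0.39, -0.23 and -0.05 relative to the housekeeping mean. With the replicate number as a block 2 of the 13 passed, and Os9 did not (adjusted p = 0.0507). Of 13 genes of ER-associated degradation 8 rose, with a median of 0.95. Selenos, a selenoprotein of the retrotranslocation complex, rose by 2.04 ± 0.28, Aup1 by 1.34 ± 0.26 and the ubiquitin-conjugating enzyme gene Ube2j1 by 0.95 ± 0.20 (-0.11 relative to the housekeeping mean).

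Of 13 UPR sensors and transcription factors 1 rose, with a median of 0.08. This was Atf4, the factor translated when PERK is active, at 1.27 ± 0.16 (adjusted p = 0.0354), which was 0.21 relative to the housekeeping mean and did not pass there (adjusted p = 0.523). Xbp1, whose spliced product drives chaperone genes, stood at 0.82 ± 0.25 (adjusted p = 0.0587), Atf6 at 1.06 ± 0.30 (adjusted p = 0.0512) and Ddit3, which encodes the stress factor CHOP, at 0.41 ± 0.17 (adjusted p = 0.111). Splicing of Xbp1 was not measured. Of 10 enzymes of collagen hydroxylation 1 rose, Plod2 (0.61 ± 0.13, -0.45 relative to the housekeeping mean), with a list median of -0.02. Plod1 stood at 0.60 (adjusted p = 0.0872) and P4ha2 at -0.18 (adjusted p = 0.192). P4ha2 belongs to the collagen hydroxylase of which P4hb is the other subunit.

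**Figure D4:**
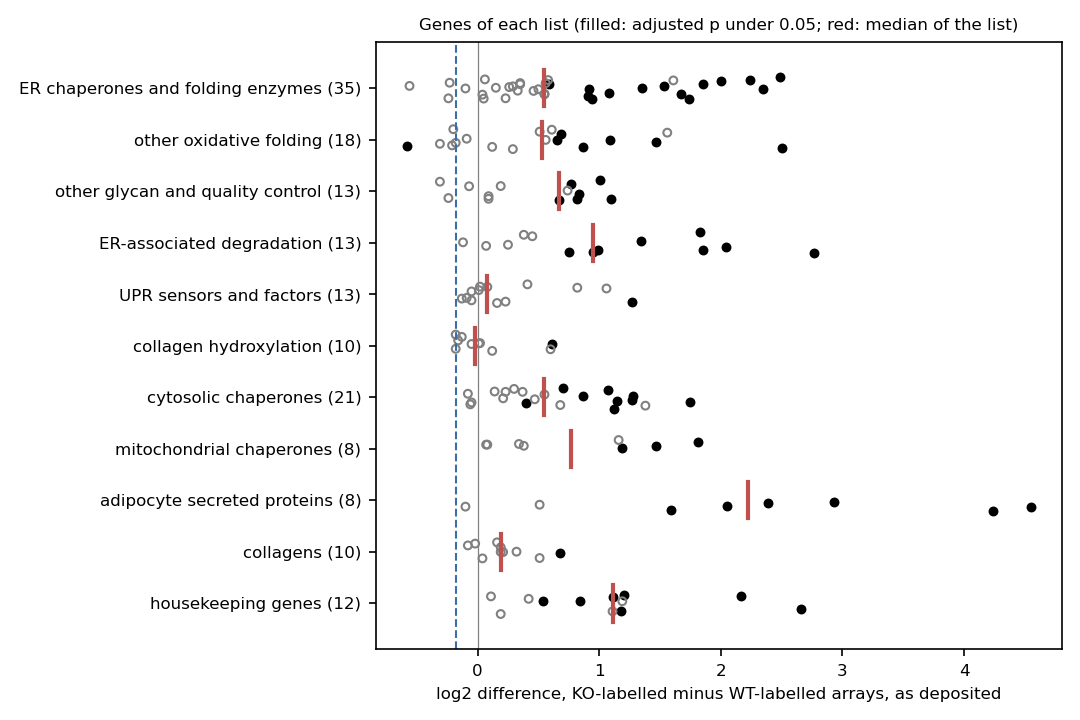
Log2 difference between KO-labelled and WT-labelled arrays for the genes of each list (points, filled where the adjusted p was under 0.05; number measured in brackets), with list medians in red and the median of protein-coding genes (-0.18) as a dashed line. ER chaperones and cytosolic chaperones have the same median, 0.55, while UPR sensors (0.08) and collagen hydroxylation (-0.02) lie near 0 and adipocyte secreted proteins at 2.22.

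Chaperones of other compartments were set beside the family. Of 21 cytosolic chaperones 9 rose, with a median of 0.55, equal to that of the ER family. The chaperonin subunit genes Cct8 and Cct5 rose by 0.87 ± 0.10 and 1.28 ± 0.25 and the J protein gene Dnaja2 by 1.12 ± 0.19, which were -0.19, 0.22 and 0.06 relative to the housekeeping mean and did not pass there as rises. Of 8 mitochondrial chaperones 3 rose, with a median of 0.77: Grpel1 (1.81 ± 0.30), Hspa9 (1.47 ± 0.28) and Hspe1 (1.19 ± 0.24). Relative to the housekeeping mean Hspa9 and Hspe1 did not pass (adjusted p = 0.213 and 0.689). Of 12 housekeeping genes 7 rose, with a median of 1.11. Relative to the housekeeping mean the medians were -0.51 for the ER family, -0.51 for the cytosolic and -0.29 for the mitochondrial chaperones. The median over all probe sets was -1.43 in that scaling. Whether the ER family differed from these lists was not tested.

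Genes of secreted proteins that fold in the ER were set beside the family. Of 8 measured genes of adipocyte secreted proteins 6 rose, with a median of 2.22. Adipoq rose by 2.93 ± 0.54, from 9.84 ± 1.11 (SD, n = 3) to 12.77 ± 0.22, Lpl (lipoprotein lipase) by 4.24 ± 0.69, its inhibitor Angptl4 by 2.39 ± 0.42 and Apoe by 1.59 ± 0.26. Of 10 collagen genes 1 rose, the basement membrane gene Col4a2 (0.68 ± 0.12), with a median of 0.19. Col4a1 (0.51, adjusted p = 0.05, just above the threshold) and the fibrillar Col3a1 (0.32, adjusted p = 0.0612) did not pass. All 3 collagens stood below 0 relative to the housekeeping mean (-0.38, -0.55 and -0.74).

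Cell type markers moved beside the folding genes, and their part in the result was not tested. Of 9 adipocyte markers 7 rose, and their mean went from between 8.45 and 9.81 on WT-labelled to between 11.38 and 12.61 on KO-labelled arrays. Of 8 endothelial markers 7 rose (means of 7.05 to 7.31 and of 8.63 to 9.34), of 7 fibroblast markers 1 rose (7.70 to 7.91 and 8.20 to 8.52) and of 8 macrophage markers 2 rose (7.49 to 7.61 and 7.91 to 8.17). At an unadjusted p under 0.05, 4 fibroblast markers were higher and 2, Dpp4 (-0.41) and Pi16 (-0.32), were lower. Relative to the housekeeping mean the list medians were 1.47 for adipocyte, 0.55 for endothelial, -0.74 for fibroblast and -0.85 for macrophage markers. Of the endothelial markers that rose, Cdh5, Kdr and Pecam1 alone still passed there. Lyz2 and C1qb, the macrophage markers that rose, did not (limma, adjusted p = 0.191 and 0.461). Of 9 markers of B, plasma and T cells, among them the secretory plasma cell, 3 fell and 0 rose (5 lower and 0 higher at an unadjusted p under 0.05, means of 6.82 to 6.88 and of 6.10 to 6.47). Their median of -0.40 lay near that of all probe sets, and after centring on array medians it was -0.07 and Cd3g, Cd79a and Ms4a1, the 3 that fell, no longer passed (adjusted p = 0.0725, 0.353 and 0.0793). Of 6 epithelial markers 1, Krt14, fell (means of 6.59 to 6.85 and of 6.18 to 6.41). After centring on array medians the epithelial median went from -0.31 to 0.02, and Krt14 no longer passed (adjusted p = 0.113). The 8 skeletal muscle markers had a mean of 6.90 to 7.01 on WT-labelled arrays and of 8.93, 10.68 and 6.86 on KO 1, KO 2 and KO 3, so muscle signal was high on KO 1 and KO 2 only. Presence of a cell type cannot be read from these values, since signal over background is not known.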

How the data were processed

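The authors deposited 1 log2 signal per probe set and array for 65956 probe sets on 6 arrays. Per the labels, total RNA was biotin-labelled with a GeneChip WT Pico kit, and the Transcriptome Analysis Console appears in the submitters' processing notes, with no version. Background correction, normalization and summary are not stated by the labels or the file header. Values reached a ceiling of 19.93, at which 222 probe sets stood on all arrays. GEO's array annotation, with symbols updated through RefSeq (GRCm38.p6), gave 31258 probe sets 1 gene symbol, 1492 several and 33206 none. A gene with several probe sets was read from the brightest (mean of the 6 arrays).

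KO-labelled and WT-labelled arrays were compared with limma 3.58.1 (R 4.3.3, lmFit and eBayes without trend, no filter on dim probe sets), with Benjamini-Hochberg adjustment over all probe sets and a threshold of 0.05. A filter at a mean of 6.83 would keep 27 of the 35 genes and 13 of the 14 called, leaving out Dnajc3. Tfg was also compared by an exact permutation test (scipy 1.17.1). Tables, motif searches and plots used Python 3.11.15, pandas 2.3.3, numpy 2.4.6 and matplotlib 3.10.9. The fit was tested on simulated arrays. The 38 genes and the related lists were chosen with earlier results of these data known. Array values are given for genes called, for the leading chaperones and for the 3 lowest differences; of each related list the 3 genes with the smallest p and a few fixed genes are named. The labels do not say that same-numbered arrays are pairs, so the numbers were not used as pairs. Deviations from group means correlated at 0.0, 0.2 and 0.14 for same-numbered arrays. For differently numbered arrays they correlated between -0.22 and 0.17. With 3 arrays a group, precision is limited. Pdia4 and Manf, on shared probe sets, were left out, and protein sequences were not used here. Alternatives covered scaling, dim probe sets, variance settings, probe set choice, the replicate block and leaving out each array.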

Additional observations from a re-analysis of the deposited data

How the results depend on the processing

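On the deposited values 13791 probe sets were called, 25.4% of them higher. The number was 6244 (64.6% higher) after quantile normalization, 8405 (61.2%) after centring on array medians, 59961 (1.5%) after centring on the housekeeping mean, 22409 with array weights and 30676 at an adjusted p under 0.10, and between 0 and 14166 when 1 array was left out. Of the 35 ER genes, 22 were called higher after centring on array medians, 24 at an adjusted p under 0.10, 6 (with 14 lower) after centring on the housekeeping mean, and between 0 and 14 when 1 array was left out. Outside the housekeeping scaling, 1 gene, Pdia2, was called lower with eBayes set to trend and robust, among probe sets with 1 symbol and at an adjusted p under 0.10. The median difference was 0.88 with array medians, 0.77 with quantile normalization and -0.51 with the housekeeping mean. Over all probe sets it was -0.04, -0.04 and -1.43. A fit that took replicate numbers as a block called 11227 probe sets and 13 of the 35 genes. Dnajc1, Os9 (both adjusted p = 0.0507), Ube2j1 (0.052) and Plod2 (0.059) lost their calls, Gstk1 gained one (0.0425), and the further glycan enzymes called went from 6 to 2 and the collagen hydroxylation enzymes from 1 to 0. Same-numbered arrays were not shown to be pairs.

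Differences that turned above 0 with array medians and with quantile normalization were Fkbp14 (0.23 and 0.24), Hyou1 (0.09 and 0.01), P4ha2 (0.15 and 0.13) and Pdia5 (0.10 and 0.06). With the housekeeping mean these turned below 0: Cct8 -0.19, Cdnf -1.0, Col3a1 -0.74, Col4a1 -0.55, Col4a2 -0.38, Creld2 -0.51, Ddit3 -0.65, Dnajb11 -0.77, Dnajc1 -0.15, Dnajc10 -0.56, Edem3 -0.05, Ero1a -0.77, Erp29 -1.01, Fkbp2 -0.71, Ganab -0.47, Hspa13 -0.83, Lman1 -0.23, Os9 -0.39, Pdia6 -0.51, Plod1 -0.46, Plod2 -0.45, Ppib -0.14, Prkcsh -0.80, Qsox1 -0.41, Sdf2l1 -0.60, Serpinh1 -0.73, Sil1 -0.48, Tfg -0.92, Txndc11 -0.91, Txndc12 -0.12, Txndc5 -0.50, Ube2j1 -0.11, Uggt1 -0.71, Uggt2 -1.02, Vkorc1l1 -0.37 and Xbp1 -0.24. Above 0 but no longer called with the housekeeping mean were Apoe, Atf4, Aup1, Calr, Cct5, Dnaja2, Dnajc3, Erp44, Hspa5, Hspa9 and Hspe1. Tfg at -0.92 was called lower there (adjusted p = 0.0112), as were 59060 of all 65956 probe sets. Uggt2 was -0.10 as the mean of its probe sets. Leaving out 1 array turned Cdnf to -0.01 (KO 2), while Uggt2 ran from -0.10 (WT 1) through -0.02 (KO 3) to 0.16 (WT 2) and Erp29 from -0.02 (WT 3) to 0.12 (WT 2). The cause of these shifts was not tested. Signal over background was not known for any probe set.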
